A study of Gallus gallus with 10 samples.

Results

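Of the 24881 chicken genes in the count table, 31 were counted in some embryos' libraries and almost not at all in others. They were chosen by their raw counts, with at least 10 reads in each of 5 libraries, namely iTeO (ES) 1 and 2, TeO 2, TeO 3 and NCC 3, and at most 15 reads summed over the other 5, iTeO (iPS) 1 and 2, TeO 1, NCC 1 and NCC 2. The first 5 libraries are called on and the others off. This difference between on and off was used to pick the genes, so it is described here and not tested. The other chicken genes were used only for scaling and as background, and the 58302 human genes of the table were left out.

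Total RNA was sequenced from wild-type chicken embryonic brain tissue in 10 libraries. The natural optic tectum (TeO), the visual centre of the chicken midbrain, gave 3 libraries and the natural cerebral cortex (NCC) gave 3. The induced ectopic optic tectum (iTeO) gave 4 libraries of tissue that grew in the diencephalon of embryos in which a piece of neuroepithelium had been replaced by human neuroepithelial cells, 2 with cells derived from embryonic stem cells (ES) and 2 with cells derived from induced pluripotent stem cells (iPS). Each kind of donor cell used for these libraries came from a single human line, and the host embryos kept all their chicken cells outside the excised piece. The labels number the libraries as replicates but do not say whether each holds tissue of a single embryo, so the p-values measure the spread between these libraries only. Chicken genes took between 7809002 and 11615474 reads per library, or 99.6% to 99.9% of all counted reads.

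In birds, females carry a Z and a W chromosome and males carry a pair of Z chromosomes, so genes found only on W are transcribed in females and absent from males. The W chromosome of the chicken is small and holds few genes, many of which have a relative on Z and are transcribed in most tissues. The labels give neither the sex of an embryo nor the place of a gene, and the gene table used here matched 0 of the chicken identifiers. Whether the 31 genes lie on W could therefore not be checked, nor could the labelled tissues be checked by their marker genes, and genes are given by their Ensembl identifier alone.

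The 31 genes together held 38126 reads in the on libraries and 42 in the off libraries. In the on libraries they had 7159 and 7309 reads in iTeO (ES) 1 and 2, 7533 and 8230 in TeO 2 and TeO 3, and 7895 in NCC 3. In the off libraries they had 3 reads in iTeO (iPS) 1, 3 in iTeO (iPS) 2, 18 in TeO 1, 11 in NCC 1 and 7 in NCC 2. No library lay between these levels, and both levels occurred within iTeO, within TeO and within NCC, as the limits and libraries named in the rule lead to. Per 1000000 chicken reads, the sum was between 680 and 747 in the on libraries. In the off libraries it was 0.384 (95% exact Clopper-Pearson interval 0.0792 to 1.12) in iTeO (iPS) 1, 0.354 (0.0730 to 1.03) in iTeO (iPS) 2, 1.55 (0.920 to 2.45) in TeO 1, 0.947 (0.473 to 1.69) in NCC 1 and 0.619 (0.249 to 1.28) in NCC 2. A sum of 3 reads corresponds to between 0.258 and 0.384 on this scale in these 10 libraries. Molecules amplified by PCR can be counted repeatedly, and both the intervals and this limit therefore cover no more than counting error. The rule also capped the off reads of each gene, so the off sums and their intervals hold only for genes chosen to be low there.

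Among all 19605 chicken genes with at least 1 read, 0.403% were higher in each of the 5 on libraries than in any off library, and 1.28% were lower in each. The rule places all 31 genes among the former.

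**Figure D1:**
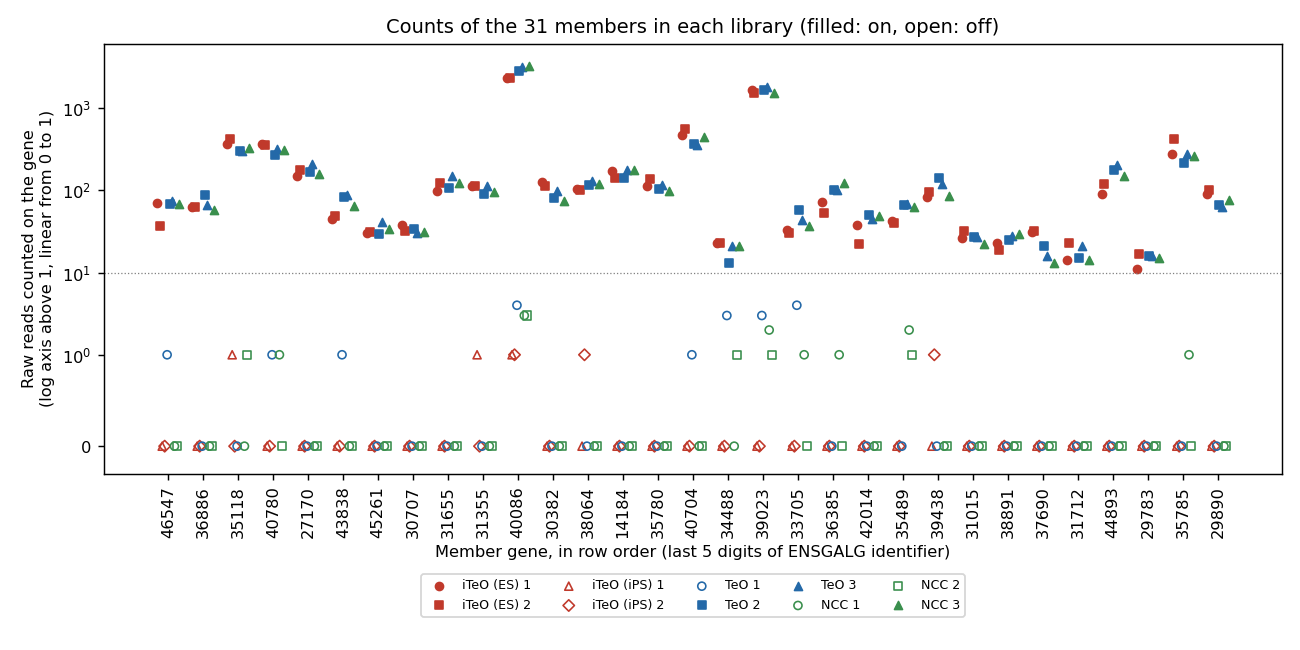
Raw reads (log axis above 1, linear from 0 to 1) of each of the 31 genes, in the order of the count table, in the 10 libraries. Red, blue and green stand for iTeO, TeO and NCC, filled symbols for on and open symbols for off libraries, and the dotted line marks 10 reads. Every filled symbol lies at 11 reads or more and every open symbol at 4 or fewer.

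The gene with the most reads was ENSGALG00000040086, with 2346 and 2324 reads in iTeO (ES), 2842 and 3132 in TeO 2 and TeO 3, and 3241 in NCC 3. In the off libraries it had 1 read in each iTeO (iPS) library, 4 in TeO 1 and 3 in each of NCC 1 and NCC 2. The gene alone took between 31.8% and 41.1% of the reads of the 31 genes in an on library.

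ENSGALG00000039023 followed with 1652 and 1509 reads in iTeO (ES), 1650 and 1795 in TeO 2 and TeO 3, and 1512 in NCC 3. It was at 0 in both iTeO (iPS) libraries and had 3 reads in TeO 1, 2 in NCC 1 and 1 in NCC 2. These 2 genes made up 57.7% of all reads of the 31 genes in the on libraries, and the 5 genes with the most reads made up 72.2%. Gene lengths were not used here, so read numbers are not compared as expression levels between genes.

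The other genes among the 5 were ENSGALG00000040704, ENSGALG00000035118 and ENSGALG00000040780. ENSGALG00000040704 had 472 and 555 reads in iTeO (ES), 368 and 355 in TeO 2 and TeO 3, 448 in NCC 3 and a single read in the off libraries, in TeO 1. ENSGALG00000035118 had 360 and 422 reads in iTeO (ES), 303 and 299 in TeO 2 and TeO 3, and 326 in NCC 3, with 1 read in iTeO (iPS) 1 and 1 in NCC 2. ENSGALG00000040780 had 360 and 359 reads in iTeO (ES), 272 and 314 in TeO 2 and TeO 3, and 307 in NCC 3, with 1 read in TeO 1 and 1 in NCC 1. In these 3 genes the iTeO (ES) libraries lay above both on libraries of TeO, in contrast to ENSGALG00000040086, where they lay below.

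Of the 31 genes, 16 had no read in any off library, 8 had 1 read and 7 had between 2 and 12. The off level as a share of the on level differed between genes, and it rests on few off reads. ENSGALG00000040086, with 12 off reads, and ENSGALG00000039023, with 6, had the highest off sums, and their mean off CPM (counts per 1000000 reads, with totals scaled by TMM) was 0.0888% and 0.0734% of the mean on CPM. ENSGALG00000033705 had 30 to 57 reads in the on libraries and 5 in the off libraries, which was 2.46% of its on level. ENSGALG00000034488 had 13 to 23 reads in the on libraries and 4 in the off libraries, or 3.96%. For these 2 genes TeO 1 held 4 of the 5 and 3 of the 4 off reads.

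At the limits of the rule, the genes inside and outside differed by few reads on the low side and by many on the high side. The lowest on counts inside were 11 reads of ENSGALG00000029783, in iTeO (ES) 1, and 13 reads of ENSGALG00000034488, in TeO 2, and of ENSGALG00000037690, in NCC 3. Just outside were ENSGALG00000044346, ENSGALG00000043708 and ENSGALG00000040470, each with at least 6 reads in every on library, sums of 52, 51 and 42, and 0 reads in all off libraries. Outside on the off side, the nearest was ENSGALG00000031327, with 6708 on reads and 22 off reads. It had 1110 and 1090 reads in iTeO (ES), 1490 and 1521 in TeO 2 and TeO 3 and 1497 in NCC 3, against 3, 6, 5, 2 and 6 in iTeO (iPS) 1 and 2, TeO 1, NCC 1 and NCC 2. Its off level was 0.352% of its on level, so that the limit of 15 reads left out a gene of the same pattern with a higher read number. The next ones outside, ENSGALG00000031839 with 60 on and 32 off reads and ENSGALG00000039214 with 79 on and 35 off reads, were counted on both sides.

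The 31 genes were unevenly placed in the row order of the table, counted here over chicken rows alone. A run of 141 rows, from row 17924 (ENSGALG00000036886) to row 18064 (ENSGALG00000039023), held 17 of them and 86.6% of their on reads. A further 13 were spread from row 19384 (ENSGALG00000033705) to row 23002 (ENSGALG00000029890) with 12.5% of the on reads, and ENSGALG00000046547 stood alone at row 7763 with 0.837%. The table gives row order without coordinates, so distances in rows are not distances in bases.

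**Figure D2:**
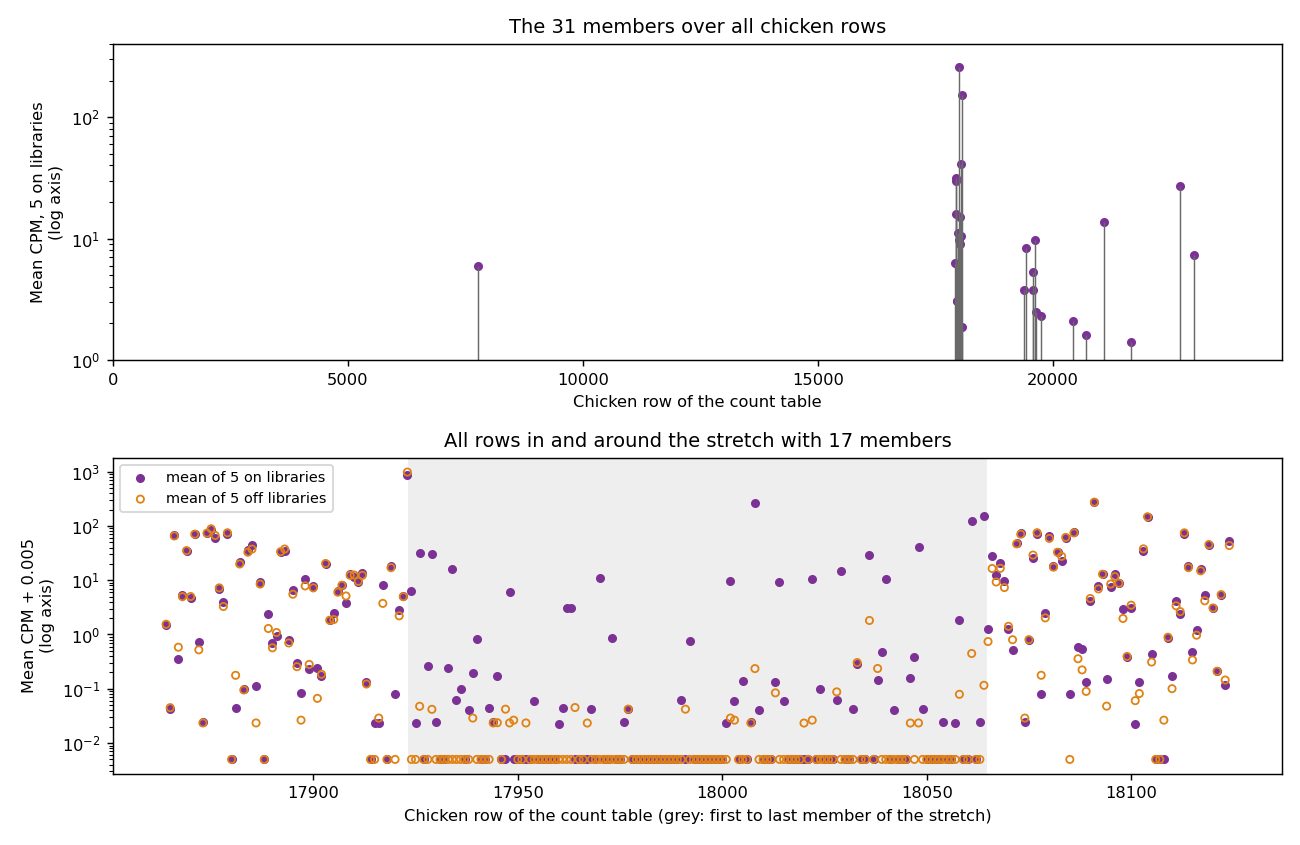
The upper panel gives the mean CPM of each of the 31 genes over the 5 on libraries (log axis) by its chicken row, and the lower panel gives the mean CPM plus 0.005 (log axis) of every row in and around the run of 141 rows, shaded grey, for the on libraries (filled) and the off libraries (open). Inside the shaded run the filled points of the 17 genes stand apart from the open ones and 74 rows have both points at 0.005 for want of any read, while on either side of it most pairs lie close together.

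When members at most 20 rows apart were chained, 21 of the 31 genes fell into 4 clusters. The run consisted of a cluster of 8 genes over 47 rows, from ENSGALG00000036886 to ENSGALG00000031655 (row 17970), and one of 9 genes over 63 rows, from ENSGALG00000031355 (row 18002) to ENSGALG00000039023. The remaining clusters were pairs. ENSGALG00000042014 and ENSGALG00000035489 took the adjoining rows 19570 and 19571, and ENSGALG00000039438 and ENSGALG00000031015 lay at rows 19622 and 19631.

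Of the 124 rows within the run that are not members, 74 had no read in any library. A further 30 were counted in on libraries only, 7 in off libraries only and 13 on both sides. None had 10 reads in every library, a number that a row that is off in a library cannot reach. The 141 rows before the run held 74 genes with at least 10 reads in every library and the 141 rows after it held 84. In the on libraries the 124 rows had 8574 reads in all, of which ENSGALG00000031327 at row 18061 had 6708. A further 1544 belonged to ENSGALG00000026991 at row 18036, picked here after its values were seen.

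ENSGALG00000026991 was high in the on libraries but kept more reads in the off libraries than any gene of the set. It had 336 and 390 reads in iTeO (ES), 165 and 283 in TeO 2 and TeO 3 and 370 in NCC 3, against 10 and 9 in iTeO (iPS), 23 in TeO 1, 14 in NCC 1 and 37 in NCC 2. Its off level was 6.30% of its on level. Only uniquely mapped reads were counted, so where a gene has a close copy elsewhere, reads shared by both are lost and the split of the rest is uncertain.

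Of the 141 rows before the run, 1 was higher in each on library than in any off library, and the same was true of 1 of the 141 rows after it. Among the 124 rows inside the run that are not members there were 8, and 74 of the 124 had no read in any library. Over all 19605 chicken genes with a read the share was 0.403%, members included. For rows counted on both sides, the log2 ratio of on to off libraries, averaged over the 3 tissues, was taken where every library had at least 10 reads, which leaves out any row that is off in a library. There were 12076 such rows with a median of 0.01. Within 100 rows of ENSGALG00000036886 its median was 0.02 over 58 rows, and within 100 rows of ENSGALG00000039023 it was 0.07 over 60 rows. Around the later genes, the number of silent neighbours varied. Within 25 rows on either side, ENSGALG00000029783 had 39 of 50 neighbouring rows without a read, ENSGALG00000031712 had 37 and ENSGALG00000044893 had 36. These were among the highest numbers, and the lowest was 18 of 50, around ENSGALG00000036385. Of all 24881 chicken rows, 19605 had at least 1 read.

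ENSGALG00000046547 was surrounded differently. It had 70 and 37 reads in iTeO (ES), 68 and 75 in TeO 2 and TeO 3 and 69 in NCC 3, with a single off read, in TeO 1. Within 400 rows of it, 425 of 445 genes with at least 10 reads in every library were lower on the on side, with a median log2 ratio of -0.55. Within 100 rows the median was -0.41 over 111 genes, and within 25 rows it was -0.08 over 17 genes, 11 of which were below 0. The windows of 100 and 400 rows were chosen after the data were seen.

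Near this gene, 3 other genes were also higher in every on library than in any off library, and they were picked after their values were seen. ENSGALG00000010180, at row 7741, had 80, 53, 62, 77 and 47 reads in iTeO (ES) 1 and 2, TeO 2, TeO 3 and NCC 3, and 21 to 35 in the off libraries. ENSGALG00000044346, at row 7753, was 1 of the genes just outside the limit of 10 reads named above. ENSGALG00000046481, at row 7779, had 102, 54, 103, 120 and 33 reads in the on libraries in the same order, and 10 and 16 in iTeO (iPS), 24 in TeO 1, 4 in NCC 1 and 7 in NCC 2. Its mean on CPM was 6.20 times its mean off CPM, against 2.20 times for ENSGALG00000010180. Unlike ENSGALG00000046547, both genes were thus counted on both sides.

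**Figure D3:**
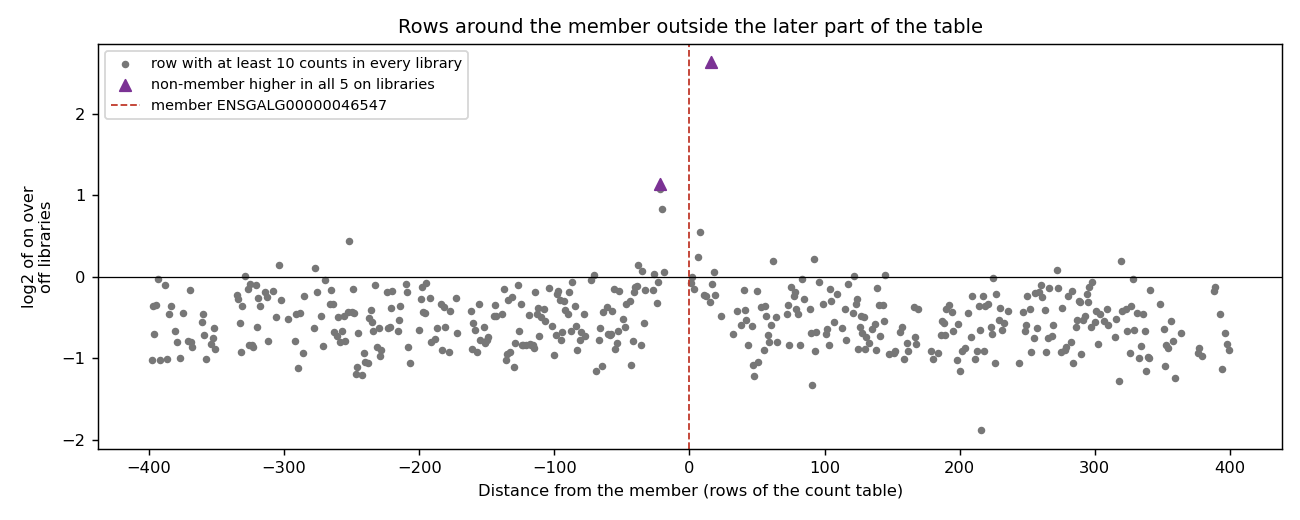
The log2 ratio of on to off libraries against the distance in rows from ENSGALG00000046547 (dashed line), for genes with at least 10 reads in every library (grey, mean of the 3 within-tissue log2 ratios). Triangles mark ENSGALG00000010180 and ENSGALG00000046481 (log2 of the ratio of mean CPM). Most grey points lie below 0, while points near the dashed line lie on both sides of 0.

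Among the 5 on libraries, the 31 genes could be compared between tissues. The rule set no difference between tissues, but it required at least 10 reads in each on library. A gene nearly absent from a tissue could thus not be chosen. The summed level was 621 and 680 CPM in iTeO (ES) 1 and 2, 738 and 750 CPM in TeO 2 and TeO 3, and 765 CPM in NCC 3. The mean of iTeO was 651 ± 41.8 CPM (SD, n = 2) and that of TeO 744 ± 8.17 CPM (SD, n = 2), a ratio of 0.875. The ratio depended on the scaling. It was 0.880 with the size factors of DESeq2, 0.924 without the most counted gene of the table and 1.002 on plain chicken totals, so no tissue order of the sum held under all of them. In bulk tissue, fewer cells of a type and less RNA per cell cannot be told apart.

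All 31 genes passed the filter on low counts in the fit of the 5 on libraries (edgeR quasi-likelihood test with TMM, Benjamini-Hochberg adjustment over 14500 genes). A gene was called when its adjusted p-value was under 0.05 and it changed by more than 1 on the log2 scale in either direction. Between iTeO and TeO none of the 31 was called, where 5.06% of all tested genes were called. Unadjusted p-values under 0.05 were found for 8 of the 31, against 31.6% of all tested genes. DESeq2 called none of the 31 and 3.83% of all tested genes. None was called either in an edgeR fit of the 12462 genes with at least 10 reads in each on library, where 5.28% were. In the fit of 14500 genes, the median log2 fold change of the 31 genes was -0.26, against 0.01 over all tested genes, and 12 of the 31 were above 0. This median lay between -0.33 (without iTeO (ES) 2) and -0.09 (without TeO 3) when a library was left out, with -0.13 without iTeO (ES) 1, and was -0.18 on totals without the most counted gene. Without NCC 3 none of the 31 was called, where 5.63% of all tested genes were. Fits without an iTeO (ES) or a TeO library leave 1 library in that tissue, so their calls are not given.

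At any fold change, 3 genes passed an adjusted p-value of 0.05 between iTeO and TeO, where 14.9% of all tested genes did, and all 3 were lower in iTeO. ENSGALG00000044893 had 7.81 and 11.1 CPM in iTeO (ES), 17.2 and 18.4 CPM in TeO and 14.3 CPM in NCC 3, a log2 fold change of -0.92 with an SE of 0.21 (edgeR quasi-likelihood test, adjusted p = 0.0302). The iTeO values lay below all others. ENSGALG00000043838 had 3.91 and 4.56 CPM in iTeO (ES), 8.04 and 7.93 CPM in TeO and 6.21 CPM in NCC 3, a log2 fold change of -0.92 with an SE of 0.23 (same edgeR test, adjusted p = 0.0382). ENSGALG00000040086, the gene with the most reads, had 204 and 216 CPM in iTeO (ES), 279 and 285 CPM in TeO and 314 CPM in NCC 3, a log2 fold change of -0.43 with an SE of 0.10 (same edgeR test, adjusted p = 0.0301). The change of ENSGALG00000040086 was the smallest of the 3 and its read number the highest. Without iTeO (ES) 1, iTeO (ES) 2, TeO 2 and TeO 3, the log2 fold change of ENSGALG00000044893 was -0.69, -1.19, -0.97 and -0.87. In the same order it was -0.81, -1.03, -0.91 and -0.93 for ENSGALG00000043838, and -0.38, -0.47, -0.45 and -0.41 for ENSGALG00000040086. These fits leave 1 library in a tissue and cannot settle whether a gene passes. With DESeq2, ENSGALG00000040086 passed (adjusted p = 0.0352), but ENSGALG00000044893 (0.0511) and ENSGALG00000043838 (0.213) did not.

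Between iTeO and NCC, 1 of the 31 genes was called, where 11.4% of all tested genes were. The share was also 11.4% in a fit of the 12462 genes with at least 10 reads in each on library, with 1 of the 31 called. ENSGALG00000036385 had 71 and 53 reads in iTeO (ES), 100 and 101 in TeO 2 and TeO 3 and 123 in NCC 3. On the scale of CPM these were 6.16 and 4.93 in iTeO, 9.80 and 9.20 in TeO and 11.9 in NCC 3, a log2 fold change between iTeO and NCC of -1.11 with an SE of 0.25 (edgeR quasi-likelihood test, adjusted p = 0.0239). NCC had a single on library, which was assumed to vary like the others. With totals that leave out the most counted gene the log2 fold change was -0.97, so the call was lost at the limit of 1. With DESeq2 it was -1.10, and the call was lost because the adjusted p-value did not pass. Without iTeO (ES) 1, iTeO (ES) 2, TeO 2 or TeO 3 it was -1.27, -0.96, -1.11 and -1.11. These fits leave 1 library in a further tissue and cannot settle the call. ENSGALG00000040086 also passed an adjusted p-value of 0.05, with a log2 fold change of -0.59 and an SE of 0.12 (edgeR, adjusted p = 0.0151), where 20.9% of all tested genes did so. It also passed with DESeq2 (log2 fold change -0.58) and on totals without the most counted gene (-0.45). Without iTeO (ES) 1, iTeO (ES) 2, TeO 2 or TeO 3 its log2 fold change was -0.54, -0.63, -0.59 and -0.59. These fits again cannot settle whether it passes. The median of the 31 genes was -0.05, against 0.01 over all tested genes. It changed sign when a library was left out, from -0.16 without iTeO (ES) 2 to 0.03 without iTeO (ES) 1, and was 0.08 on totals without the most counted gene.

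Between TeO and NCC none of the 31 genes was called by edgeR, where 8.33% of all tested genes were. Unadjusted p-values under 0.05 were found for 0 of the 31 as well, against 27.7% of all tested genes. DESeq2 called none of the 31 and 7.15% of all tested genes. None was called either in an edgeR fit of the 12462 genes with at least 10 reads in each on library, where 8.51% were. In the fit of 14500 genes, the median log2 fold change of the 31 genes was 0.01, equal to that over all tested genes after rounding. Single genes ranged from -0.35 for ENSGALG00000034488 to 0.56 for ENSGALG00000039438. With 1 NCC library the interval of a single gene is wide, so this does not show that the levels are equal.

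**Figure D4:**
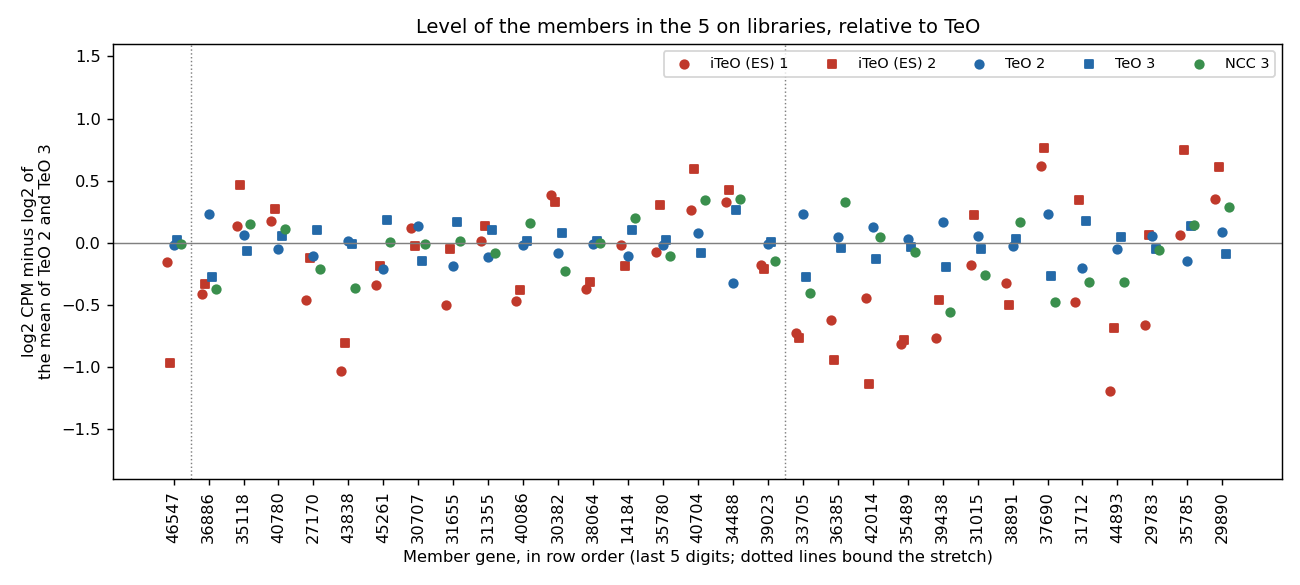
The log2 CPM of each of the 31 genes in the 5 on libraries, relative to the mean of TeO 2 and TeO 3 for that gene, in row order. Red marks iTeO (ES), blue TeO and green NCC 3, and the dotted lines bound the run of 17 genes. The red points lie on both sides of 0 inside the run and mostly below 0 in the rows after it.

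The genes of the run and those of the later rows were also counted apart, a division made after the data were seen. In the run, 9 of 17 genes had a fitted log2 fold change between iTeO and TeO below 0, with a median of -0.11. In the rows after it, 9 of 13 were below 0, with a median of -0.41. Without overlap between the iTeO (ES) and the on TeO libraries, 6 genes were lower and 5 higher in the run, and 7 were lower and 2 higher in the later rows. Over all 31 genes these were 14 lower and 7 higher in iTeO, where 31.8% and 31.4% of the 12462 genes with at least 10 reads in each on library were lower and higher without overlap. The difference between the run and the later rows was not tested. By the mean of the on libraries, iTeO was the lowest tissue in 18 of the 31 genes, 11 of them with TeO highest and 7 with NCC highest, and it was the highest tissue in 12 genes. In 1 gene it lay between the others. Many of these orders rest on differences within the spread of the replicates.

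Both clusters in the later rows were pairs. The pair ENSGALG00000042014 and ENSGALG00000035489 had 38 and 22 reads and 42 and 40 reads in iTeO (ES) 1 and 2, 50 and 45 and 67 and 69 reads in TeO 2 and TeO 3, and 48 and 63 reads in NCC 3. Their log2 fold changes between iTeO and TeO were -0.75 and -0.80. In ENSGALG00000039438, at row 19622, it was -0.61, with 7.20 and 8.94 CPM in iTeO (ES), 13.8 and 10.8 CPM in TeO and 8.34 CPM in NCC 3, so that NCC lay within the range of iTeO. Its partner ENSGALG00000031015, at row 19631, had 2.26 and 2.98 CPM in iTeO (ES), 2.65 and 2.46 CPM in TeO and 2.13 CPM in NCC 3, a log2 fold change of 0.03. None of these 4 passed the test between iTeO and TeO.

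Other genes of the set had a higher mean in iTeO than in TeO and NCC, also without passing the test. ENSGALG00000037690 had 31 and 32 reads in iTeO (ES), 21 and 16 in TeO 2 and TeO 3 and 13 in NCC 3, with 0 in all off libraries and log2 fold changes of 0.69 against TeO and 1.16 against NCC. ENSGALG00000035785, at row 22706, had 278 and 418 reads in iTeO (ES), 213 and 279 in TeO 2 and TeO 3 and 263 in NCC 3, with 1 off read, in NCC 1. ENSGALG00000029890, the last of the set in row order, had 90 and 100 reads in iTeO (ES), 66 and 63 in TeO 2 and TeO 3 and 77 in NCC 3, and none in the off libraries. In ENSGALG00000035785 iTeO (ES) 1, with 24.1 CPM, lay between TeO 2 and TeO 3, with 20.9 and 25.4 CPM, and iTeO (ES) 2 reached 38.9 CPM. The replicates of iTeO thus differed more for this gene than those of TeO.

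The other genes of the run had between 29 and 210 reads in each on library, apart from ENSGALG00000034488, given above, and at most 1 read in all off libraries together. ENSGALG00000027170 had 149 and 176 reads in iTeO (ES), 169 and 210 in TeO 2 and TeO 3 and 159 in NCC 3. ENSGALG00000014184 had 170 and 141, 142 and 176, and 177 reads in the same order, and ENSGALG00000035780 had 113 and 137, 104 and 115, and 99. None of these 3 genes had a read in an off library, and the raw reads of iTeO and TeO overlapped in each. On the scale of CPM ENSGALG00000027170 did not overlap, with 12.9 and 16.4 in iTeO (ES) against 16.6 and 19.1 in TeO. ENSGALG00000030382 had 126 and 113 reads in iTeO (ES), 81 and 97 in TeO 2 and TeO 3 and 74 in NCC 3, so that iTeO was above the other tissues. ENSGALG00000038064 had 103 and 100 reads in iTeO (ES), 117 and 128 in TeO 2 and TeO 3 and 119 in NCC 3, so that iTeO was below them. The log2 fold changes between iTeO and TeO were 0.35 (SE 0.19) and -0.34 (SE 0.18), and neither passed the test (edgeR, adjusted p = 0.258 and 0.239).

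Several genes in the rows after the run had few reads. ENSGALG00000029783 had 11 and 17 reads in iTeO (ES), 16 in each of TeO 2 and TeO 3 and 15 in NCC 3. ENSGALG00000031712 had 14 and 23, 15 and 21, and 14 reads, and ENSGALG00000038891 had 23 and 19, 25 and 28, and 29 reads in the same order. All 3 were at 0 in every off library, and at these counts their log2 fold changes between iTeO and TeO, -0.26, -0.02 and -0.41, had SE of 0.46, 0.45 and 0.33, so that a change of a like size was not detectable at this depth.

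The spread among the on libraries was close to that of other genes. The highest on library was between 1.16 times (ENSGALG00000039023) and 2.42 times (ENSGALG00000036385) the lowest, with a median of 1.59 over the 31 genes, against 1.63 over the 12462 genes with at least 10 reads in each on library. No replicate was a copy of another. Between the iTeO (ES) libraries the chi-square statistic over all chicken genes was 13.4 per degree of freedom, and it was 3.97 between TeO 2 and TeO 3. Over the 31 genes alone it was 2.80 and 1.22. This statistic rises with read number at a given spread, so the values over all genes and over the 31 are not compared.

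The tissues were also compared over all 10 libraries (edgeR). The rule put on and off libraries into every tissue, which sets both the spread within tissues and the fold changes of the 31 genes, so the values are a description of how these genes appear in such a fit and nothing is read from their number of calls. All 31 passed the filter on low counts in that fit of 13999 genes. Between iTeO and TeO 0 of the 31 were called by edgeR, where 6.79% of all tested genes were, and the same held for iTeO against NCC, where 16.9% were, and for TeO against NCC, where 12.8% were. The smallest unadjusted p from edgeR for any of the 31 was 0.303, so that 0 lay under 0.05, where 45.6%, 56.9% and 45.3% of all tested genes did. DESeq2 called none of the 31, and 6.52%, 16.7% and 12.7% of all tested genes in the same order. The median log2 fold changes of the 31 genes in edgeR were -0.59, 0.58 and 1.02, and those of all tested genes 0.01 in each case. Between TeO and NCC all 31 genes were above 0.

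The tissues held unequal numbers of on libraries, 2 of 4 in iTeO, 2 of 3 in TeO and 1 of 3 in NCC. The log2 ratio of these shares is -0.42 for iTeO over TeO, 0.58 for iTeO over NCC and 1 for TeO over NCC. The medians changed when a library was left out. Between iTeO and TeO the median was -1.17 without TeO 1 and -0.00171 without TeO 3, and between iTeO and NCC it was 0.98 without iTeO (iPS) 2 and -0.02 without NCC 1. Without NCC 3, the only on library of that tissue, the medians against NCC were 8.11 for iTeO and 8.40 for TeO, fitted values that depend on the prior count. Within iTeO, both ES libraries were on and both iPS libraries off, so the kind of implanted cell and the on or off state cannot be told apart there.

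**Figure D5:**
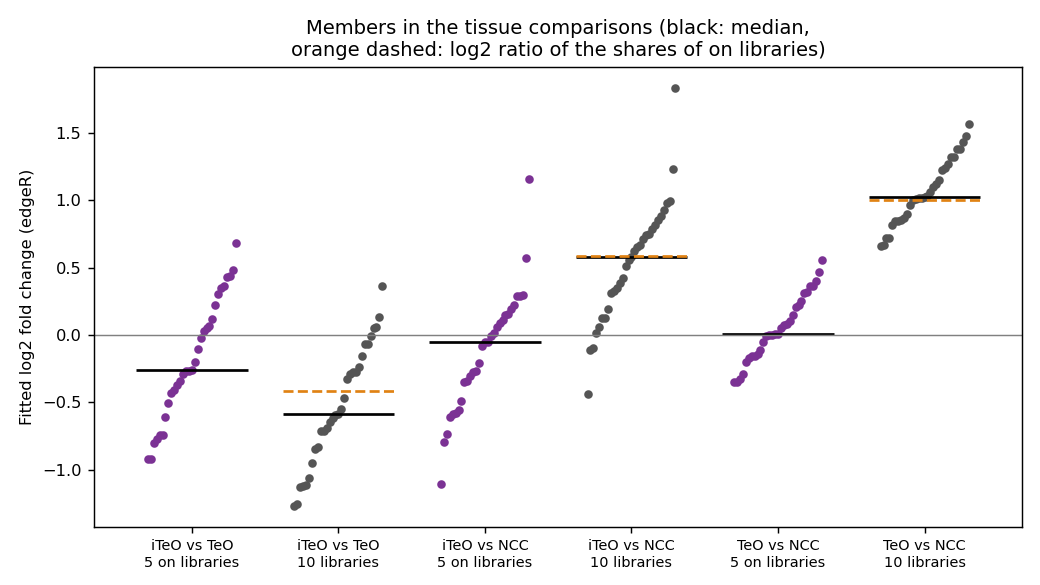
Fitted log2 fold changes of the 31 genes (edgeR) for each pair of tissues, over the 5 on libraries (purple) and over all 10 libraries (grey), with the median as a black line and the log2 ratio of the shares of on libraries as an orange dashed line. Over the 10 libraries the medians, -0.59, 0.58 and 1.02, lie near the dashed lines at -0.42, 0.58 and 1, as the rule leads to, and over the on libraries they are -0.26, -0.05 and 0.01, of which the second changes sign when a library is left out.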

How the data were processed

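Values were deposited as whole-number counts per gene, without normalization. The authors trimmed reads with Trimmomatic, aligned them with STAR 2.7.1a to joined human (GRCh38) and chicken (galGal5) genomes, and counted uniquely mapped reads with featureCounts. The strand setting is not given in the sources used here. Groups and replicate numbers came from sample titles. The members and lists were chosen with earlier results of these data known.

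CPM were scaled by TMM over 10 libraries. Tissues were compared with edgeR 4.0.16 in R 4.3.3 (TMM, filterByExpr by tissue, robust quasi-likelihood fit) over all chicken genes, once in the 5 on libraries and once in all 10. A call required a change of more than 1 on the log2 scale and a p-value under 0.05 after Benjamini-Hochberg adjustment. Standard errors are the fold change divided by the root of F. Genes named were those with the most reads, those passing a test, those at the limits of the rule, and those alone or at the ends of clusters. Further genes inside the clusters of the run were given as examples, with their values known. Alternatives were DESeq2 1.42.0, other scalings and filters, other limits and gaps, a replicate block, and leaving out each library.

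On simulated counts with 200 genes changed by a log2 fold change of 2 between iTeO and TeO, edgeR recovered 84% in the 5 libraries (14500 genes, 14 false among 182 calls) and 93% in the 10 (13999 genes, 0 false among 186).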

Additional observations from a re-analysis of the deposited data

How the results depend on the processing

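The rule gave between 26 and 40 genes when its limits were 5 or 20 reads in each on library, or 5 or 30 reads over the off libraries. The largest cluster in row order had 9 genes at a gap of 20 rows, 5 at 10 rows and 17 at 50 rows. The summed level of iTeO over TeO was 0.875 with TMM and 1.002 on chicken totals. Among the on libraries, leaving out a library moved the median log2 fold change of the 31 genes. It lay between -0.33 and -0.09 for iTeO against TeO and between -0.16 and 0.03 for iTeO against NCC. Fits without an iTeO (ES) or a TeO library leave 1 library in that tissue, so their calls are not given. Between iTeO and NCC, DESeq2 called 0 of the 31 in place of 1, and 8.74% of all tested genes in place of 11.4%. Totals without the most counted gene also called 0, and 12.2% of all tested genes. That scaling moved the median of all genes between iTeO and NCC from 0.01 to 0.15, and that of the 31 genes from -0.05 to 0.08. The cause of these changes was not tested. The genes that passed between iTeO and TeO kept their direction in all 11 alternatives. The fit without NCC 3 and that of the iTeO and TeO libraries alone were the same fit, listed under both names. The log2 fold change lay between -0.47 and -0.35 in ENSGALG00000040086, between -1.03 and -0.81 in ENSGALG00000043838 and between -1.19 and -0.69 in ENSGALG00000044893. Between iTeO and NCC it was between -1.27 and -0.96 for ENSGALG00000036385 in 9 alternatives, and between -0.63 and -0.45 for ENSGALG00000040086. Several of these alternatives leave 1 library in a tissue, so the range of their p-values is not given.

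Over the 10 libraries, 0 of the 31 genes were called in every fit that tested them, where between 5.41% and 17.6% of all tested genes were. The rule put on and off libraries into every tissue, so these 0 calls do not show that a result is stable. None of the 31 was testable at 10 reads in every library. With the replicate number as a block, 0 were called as well, but the median between iTeO and TeO was 0.92 in place of -0.59. The numbers were not taken to pair the libraries, and correlations at like numbers did not stand apart from the others. Deviations from the tissue means, taken over 12076 genes that are no independent replicates, were correlated between TeO and NCC libraries. The correlations were 0.170, -0.150 and 0.155 for libraries numbered 1, 2 and 3, and between -0.301 and 0.193 for unlike numbers. They were positive where both libraries were on or both off, and negative otherwise. Deviations from a tissue mean sum to 0 within the tissue, so both signs had to occur, and the pattern of signs was not tested. TeO 1 and NCC 1 were both off and TeO 3 and NCC 3 both on, while TeO 2 was on and NCC 2 off. Like number and like state thus largely coincide, so these correlations cannot decide whether the numbers pair libraries. No paired analysis was possible among the on libraries because they share too few replicate numbers. Genes with 11 to 30 reads in an on library limit the precision of their fold changes.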
